A study of Mus musculus with 18 samples.

Results

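The replication-dependent histone genes code for the linker histone H1 and the core histones H2A, H2B, H3 and H4. They were taken from the count table as the rows whose mouse symbol or older name starts with Hist1h, Hist2h, Hist3h or Hist4h. Of 26301 genes in the table, 68 met this rule, out of 70 such names in the reference tables: 6 for H1, 19 for H2A, 19 for H2B, 12 for H3 and 12 for H4. By chromosome, 54 of the 68 lie on chromosome 13, 10 on chromosome 3, 3 on chromosome 11 and 1 on chromosome 6. The 60 genes with at least 10 reads in at least 3 libraries are described here, made up of 6 H1, 14 H2A, 17 H2B, 11 H3 and 12 H4 genes. Of these, 58 also passed the expression filter of the test across all genes, and H1f6 and H2bu2 did not. The third-highest count of H1f6, just inside the rule, was 10 reads and that of H2bu2 was 11, while H2bu1-ps, just outside it, had 6. One row, H2ac10, had no read in any library. H4bc24 is typed H2B here, after its older name Hist1h2br.

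The cells were mouse cortical astrocytes, dissected from newborn pups, cultured for about 2 weeks in serum medium and moved to serum-free N2 medium once confluent. They were given hippocampal neurons of newborn TdTomato-positive mice (co-culture) or kept without neurons (astrocytes alone), and were collected after 2, 4 or 7 days. All were then sorted on TdTomato fluorescence, with the gate set on astrocytes alone, and their total RNA was depleted of ribosomal RNA and sequenced. The 6 groups of 3 libraries are co-culture at days 2, 4 and 7 and astrocytes alone at days 2, 4 and 7. All groups share the astrocyte source, the medium and the sort. Neither the strain nor the genotype of the astrocytes is given, nor whether animals were pooled. In the labels, 1 date goes with each replicate number, and a co-culture library and the astrocyte-alone library of its number and day are called a pair below. The title of the series asks which astrocyte transcripts are regulated by contact with neurons.

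A cell that copies its DNA makes histones in bulk to package the new strands, and the mRNAs of these genes accumulate in S phase and are degraded when it ends. Most of them carry no poly(A) tail: their 3′ end is a short stem-loop, bound by the protein Slbp. The genes lie in clusters, and many copies of one histone type have coding sequences that are almost the same. Replacement histones, such as H3.3, are made outside S phase from single genes with polyadenylated mRNAs. A few of the replication-dependent genes, H1f2 (H1.2) and H2bc4 among them, are known to be expressed also as polyadenylated RNA in differentiated tissues.

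The stem-loop is the feature that sets these mRNAs apart, so it is shown for the gene of each type with the most reads among those that have it. The 26 bases are written 5′ to 3′ from the sense strand of the GENCODE vM21 transcripts (GRCm38), with the 16 bases of the stem-loop in capitals.
H1f2: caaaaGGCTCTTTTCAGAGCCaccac
H2ac18: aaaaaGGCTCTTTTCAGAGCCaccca
H2bc8: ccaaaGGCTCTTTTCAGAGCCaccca
H3c6: aaaacGGCTCTTTTAAGAGCCacctc
H4c4: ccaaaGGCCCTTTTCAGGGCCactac
Such a sequence lay 22 to 59 bases after the stop codon (median 32) in 42 of the 59 described genes with an annotated transcript. By type it was found in 4 of 6 H1, 10 of 13 H2A, 9 of 17 H2B, 8 of 11 H3 and 11 of 12 H4 genes. The 42 genes held 7 different 16-base sequences, and 24 of them shared the one printed for H1f2, H2ac18 and H2bc8. Of the 17 without it, 10 have an annotated 3′ end that stops within 25 bases of the stop codon. Among 22461 other coding genes, 3 (0.0134%) had one within 120 bases of the stop codon, and 1 of these is the gene of the H2A variant H2afx.

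Depth and the state of some libraries bear on every result below, so they come first. Libraries held 3242459 to 32623556 reads, of which 88 to 25778 fell on the 68 histone rows and 193226 in all. Levels are given as CPM, which are counts per 1000000 reads of the TMM-scaled library. A count of 3 reads is taken as the floor. In 2 libraries most reads, or a large share of them, fell on very few genes. Astrocytes alone at day 2, replicate 1, had 92.5% of its reads on 1 gene, and 88 histone reads. The day 7 co-culture, replicate 1, had 44.1% of its reads on the mitochondrial ribosomal RNAs. They are called apart below, and the sums, medians and counts of days 2 and 7 are also given without them, as are the fold changes of histone genes that rest on them. Among the other 16, a set of 30 genes, none of them a histone row, had no read at all in 8 libraries. Those are the 6 of replicate 2 and, from replicate 3, the day 7 co-culture and the day 2 astrocytes alone. These 8 are called the libraries with the gap. They hold 4 co-cultures and 4 astrocyte-alone libraries, as the other 8 do. The pairs of replicate 3 at days 2 and 7 therefore join a library with the gap to one without it, and 5 pairs lie within one of these sets: replicate 2 at day 2, replicates 1, 2 and 3 at day 4 and replicate 2 at day 7. Without the libraries apart, all astrocytes alone left at day 2 and all co-cultures left at day 7 have the gap. Comparisons of the cultures at days 2 and 7 over the 16 libraries are thus largely comparisons of the sets too. The day 4 co-culture, replicate 3, had a read in 85.4% of all tested genes and in 45 of the described histone genes. The astrocyte-alone library of its pair had a read in 98.8% and in 59. The astrocyte marker genes Gfap, Aqp4, Aldh1l1, Slc1a3 and Gja1, from a list of 10, had reads in every library. The level of the 10 was not uniform. They summed to 2169 to 5222 CPM in the libraries with the gap and 1018 to 5825 CPM in the other 8. The sum was 578 CPM in the library apart of day 2 and 1749 CPM in that of day 7.

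Linker histone transcripts gave the largest share of histone reads. H1 took 44.0% of them, H2B 21.6%, H2A 17.3%, H4 9.40% and H3 7.73%, shares of reads that are not corrected for length. A single gene, H1f2, took 31.6% of all histone reads and 71.7% of the H1 reads. In the 16 libraries H1 made up 28.3% to 57.8% of the histone reads (median 42.6%). In replicate 1 of the day 7 co-culture it was 13.8%, while H2A was 29.7%, H2B 36.5% and H4 15.9%. There H1f2 had 6.45% of the histone reads, against 20.5% to 40.6% in the other 17 libraries.

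**Figure D1:**
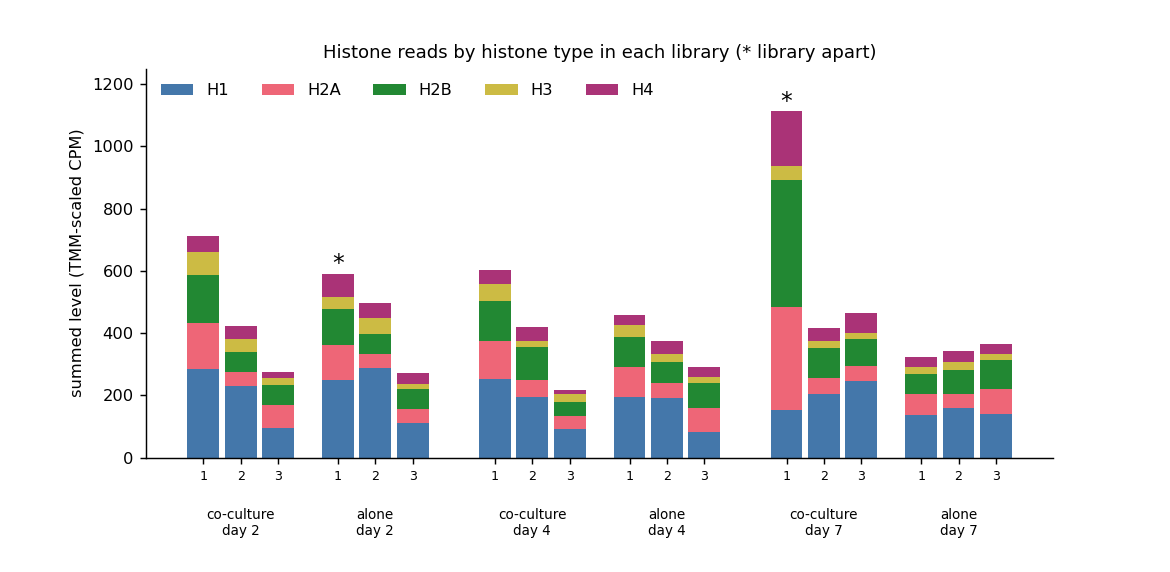
Summed level of the 68 histone rows in each library, in TMM-scaled CPM on a linear axis from 0, stacked by histone type; bars are single libraries, numbered by replicate, and stars mark the 2 libraries apart. The sum was 1113 CPM in replicate 1 of the day 7 co-culture and 217 to 714 CPM in the 16 libraries not apart.

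Per kilobase of coding sequence, H1f2 was the most abundant of the described genes, at a median of 213 CPM per kb over the 16 libraries (range 102 to 320). H2bc4 (Hist1h2bc) followed at 83.7 CPM per kb (41.3 to 180), and the linker histone genes H1f3 (H1.3) at 37.7 (6.90 to 74.5) and H1f4 (H1.4) at 28.4 (1.54 to 57.3). The most abundant gene of H4 was H4c9 (Hist1h4i), at 23.5 CPM per kb, of H2A H2aw (Hist3h2a), at 22.7, and of H3 H3c6 (Hist1h3e), at 18.7. The ranges of neighbours in this order overlap from the top of it downwards. H2af-ps2 (Hist1h2al), annotated as a transcribed pseudogene, has no coding length and is not ranked. It held 41.5% of the H2A reads, the most of any H2A row.

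**Figure D2:**
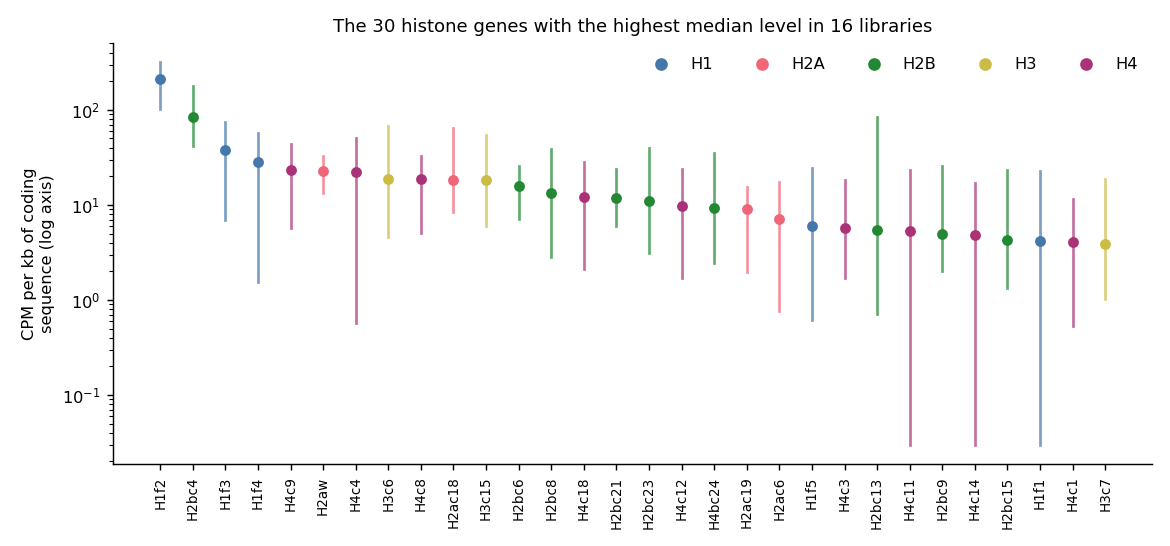
The 30 histone genes with a coding sequence that had the highest median level, in CPM per kb of coding sequence on a log axis. Points are medians and lines the lowest and highest of the 16 libraries not apart, with values of no read drawn at the bottom. H1f2 at 213 and H2bc4 at 83.7 CPM per kb have the highest medians.

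The ranges of H1f2 in the 2 cultures overlapped at each day. In co-culture it had 205, 143 and 73.6 CPM in replicates 1, 2 and 3 at day 2, 180, 138 and 86.8 CPM at day 4, and 71.8, 143 and 188 CPM at day 7. Astrocytes alone had 121, 186 and 81.8 CPM at day 2, 141, 134 and 65.3 CPM at day 4, and 112, 113 and 113 CPM at day 7. At days 2 and 4 replicate 3 was the lowest of each group. At day 7 the 3 libraries of astrocytes alone lay close together, below 2 of the 3 co-culture libraries and above the one apart. The log2 fold change at day 7 was 0.26 (SE 0.44, adjusted p = 0.918, edgeR quasi-likelihood test with Benjamini-Hochberg adjustment), and 0.51 (SE 0.45) without the libraries apart.

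H1f3 was the only tested linker histone gene without overlap between the cultures at day 7 over all libraries. Without the libraries apart, H1f2 and H1f5 did not overlap either. In co-culture H1f3 had 73.0, 30.5 and 28.3 CPM at day 7, against 14.1, 16.4 and 14.5 CPM in astrocytes alone. These ranges do not overlap, with or without replicate 1. At day 4 the co-culture had 34.8, 25.3 and 4.59 CPM and astrocytes alone 24.9, 29.8 and 8.25 CPM, which do overlap. The log2 fold change at day 7 was 1.55 (SE 0.73), with adjusted p = 0.530 by edgeR, so the gene did not pass the test, and without the libraries apart it was 0.93 (SE 0.79). H1f4 had 8.74, 21.8 and 21.8 CPM in co-culture at day 7, against 8.60, 23.4 and 9.57 CPM in astrocytes alone. The groups overlap, and the log2 fold change was 0.34 (SE 0.79), and 0.62 (SE 0.87) without the libraries apart. H1f5 (H1.5), which is known to be tied closely to division, ran from 0.417 to 16.6 CPM in the 16 libraries and was lowest in replicate 3 of the day 4 co-culture. H1f1 (H1.1) had no read in that library. Promoters of the H1 genes hold a known H1-specific element, the H1 box, and it is shown because it separates this type from the core histones. The stretches are 70 bases of the sense strand before the start of transcription, from RefSeq on GRCm38.p6, with the H1 box in capitals.
H1f2, chr13:23738683-23738752, plus strand: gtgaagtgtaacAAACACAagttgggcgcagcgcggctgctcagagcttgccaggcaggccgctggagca
H1f3, chr13:23554898-23554967, plus strand: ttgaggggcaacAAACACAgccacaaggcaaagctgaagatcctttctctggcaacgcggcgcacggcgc
H1f4, chr13:23622616-23622685, minus strand: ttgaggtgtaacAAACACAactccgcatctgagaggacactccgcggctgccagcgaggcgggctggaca
In the 250 bases before the start, searched on both strands, AAACACA was found in 5 of 6 H1 promoters, 1 of 13 H2A, 1 of 15 H2B, 0 of 9 H3 and 0 of 11 H4, against 7.20% of all 27025 genes with a promoter in the table. A promoter was listed for 54 of the 60 described genes.

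Among the H2A genes, H2ac13 (Hist1h2ai) was close to absent in one set of libraries and abundant in the other. The libraries with the gap held 20 of its reads in all, at 0 to 0.198 CPM, while the other 8 held 4044 reads, at 0.596 to 39.5 CPM. In co-culture it had 39.5, 0 and 12.4 CPM at day 2, 25.7, 0.0448 and 0.596 CPM at day 4, and 90.8, 0.198 and 0 CPM at day 7. Astrocytes alone had 26.9, 0.112 and 0.112 CPM at day 2, 18.3, 0.0665 and 12.3 CPM at day 4, and 8.31, 0.107 and 12.1 CPM at day 7. Every library of replicate 2 was low, and in replicate 3 the day 7 co-culture and the day 2 astrocytes alone were low while the other 4 libraries were higher. Its log2 fold changes of co-culture over alone, 5.13 (SE 4.23) at day 2, −0.21 (SE 2.25) at day 4 and 2.13 (SE 2.34) at day 7, were not called by edgeR, though edgeR with library totals in place of TMM called the gene at day 2. That call includes the library apart of day 2, where the gene had 4 reads. Without the libraries apart the log2 fold changes, with TMM, were 7.21 (SE 3.07) at day 2 and −5.97 (SE 2.91) at day 7, where the direction is the opposite one. The libraries with the gap cannot be told apart from the culture in the pairs of replicate 3 at days 2 and 7. Within replicate 3, the difference in mean log2 CPM, libraries with the gap over the others, was −5.58.

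H2af-ps2 was less split. In co-culture it had 51.5, 17.7 and 37.4 CPM at day 2, 47.5, 22.2 and 20.9 CPM at day 4, and 72.3, 23.0 and 24.5 CPM at day 7. Astrocytes alone had 20.2, 20.5 and 23.2 CPM at day 2, 40.7, 23.1 and 30.4 CPM at day 4, and 20.9, 19.8 and 39.0 CPM at day 7. The groups overlap on each day, and replicate 2 stayed between 17.7 and 23.1 CPM in both cultures.

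The coding sequence of H2ac13 is nearly that of other H2A genes, which matters for how a read is assigned, so its first 120 coding bases are shown with those of H2ac7 (Hist1h2ad) and of H2aw. They are from GENCODE vM21 (GRCm38), 5′ to 3′, and capitals mark bases that differ from H2ac13.
H2ac13: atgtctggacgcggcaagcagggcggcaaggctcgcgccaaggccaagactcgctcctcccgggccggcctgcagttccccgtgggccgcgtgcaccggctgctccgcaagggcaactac
H2ac7: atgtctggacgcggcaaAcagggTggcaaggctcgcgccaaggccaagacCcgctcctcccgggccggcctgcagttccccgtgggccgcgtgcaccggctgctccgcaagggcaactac
H2aw: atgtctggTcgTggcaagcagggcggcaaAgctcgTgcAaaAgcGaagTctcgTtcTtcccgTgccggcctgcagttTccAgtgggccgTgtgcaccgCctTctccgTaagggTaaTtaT
Over the whole 393 coding bases H2ac7 differs from H2ac13 at 5 positions (98.7% identity) and H2aw at 40 (89.8%). H2ac7 was low in both sets, at 0 to 0.448 CPM in the libraries with the gap and 0 to 0.947 CPM in the other 8. H2aw was at 7.53 to 12.8 CPM in the libraries with the gap and 5.23 to 9.28 CPM in the other 8, which overlap. The labels do not say how reads that fit several genes were counted, so values of single genes with near-identical copies are uncertain. H2ac18 (Hist2h2aa1) and H2ac19 (Hist2h2aa2) have the same coding sequence. H2ac18 was at 3.28 to 5.83 CPM in the libraries with the gap and 8.47 to 25.5 CPM in the other 8, with no overlap. H2ac19 was at 2.58 to 5.42 CPM and 0.775 to 6.12 CPM, which overlap.

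**Figure D3:**
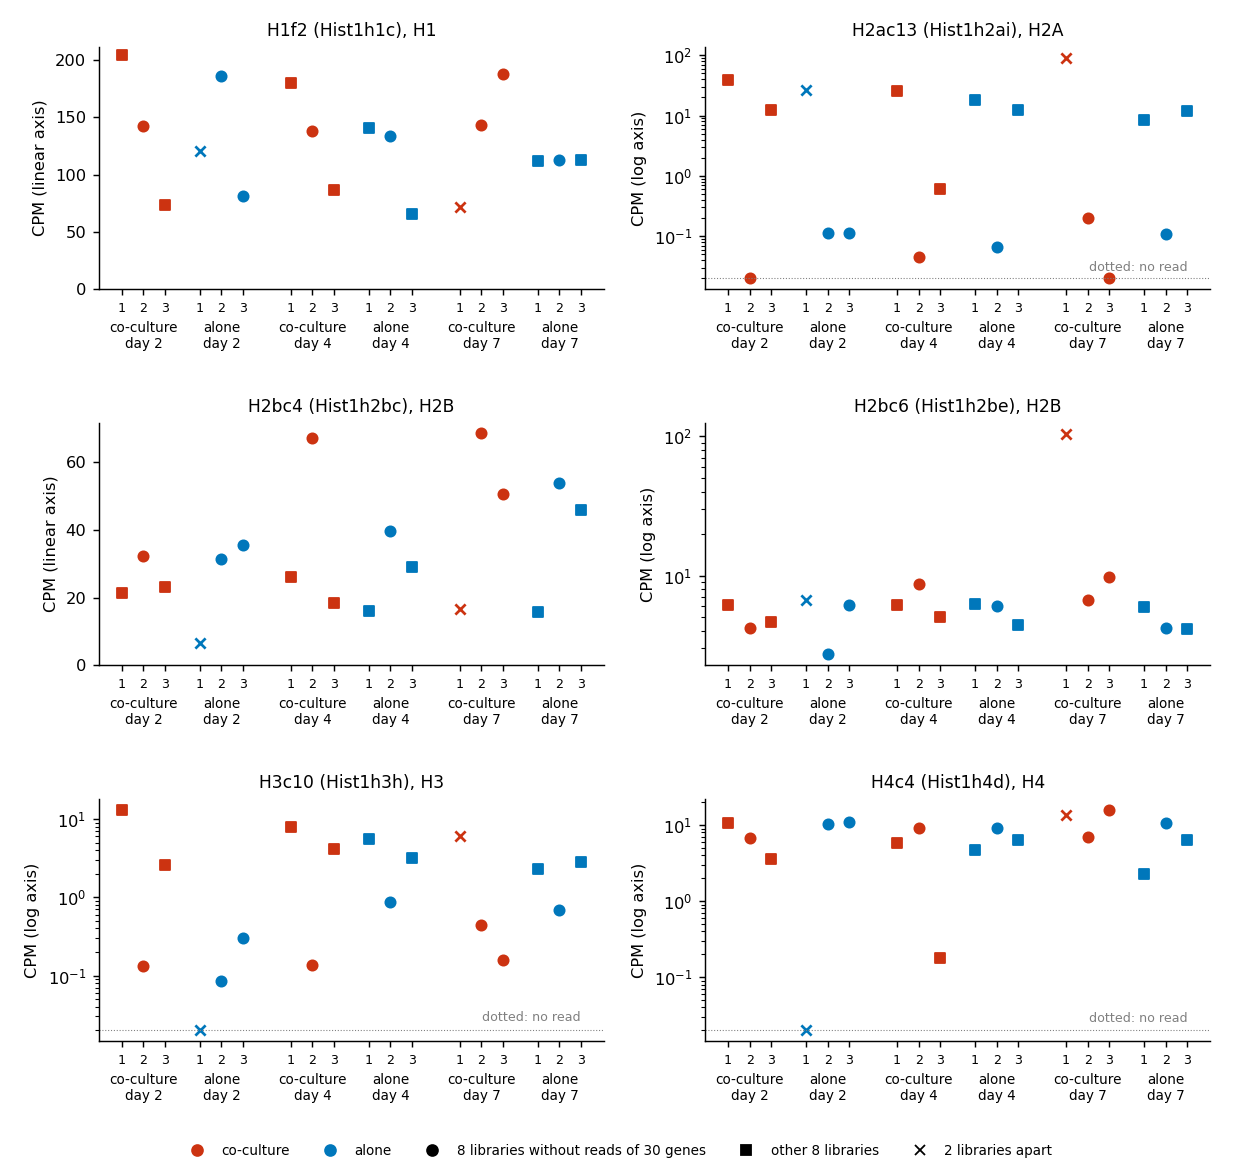
Level of 6 histone genes in each library, in TMM-scaled CPM, on a linear axis for H1f2 and H2bc4 and a log axis for the others; colour marks the culture, shape the set of libraries, and the dotted line stands for no read. H2ac13 is at most 0.198 CPM in the 8 libraries with the gap and at least 0.596 CPM in the other 8.

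The same split ran through many of the core histone genes. The libraries with the gap were over 2-fold lower than the other 8, in mean log2 CPM, for 15 of the 58 tested histone genes (25.9%), against 4.07% of all tested genes. They were over 2-fold higher for 11 of 58, against 5.1% of all tested genes. The ranges did not overlap for 9 of 58 lower genes, against 1.22% of all tested genes, and for 0 of 58 higher ones, against 0.0726%. The 9 are H2ac13, H2ac18, H2bc9, H2bc13, H2bc15, H2bc22, H3c10, H4bc24 and H4c11. By type, 0 of 5 H1, 5 of 14 H2A, 7 of 16 H2B, 2 of 11 H3 and 1 of 12 H4 genes were over 2-fold lower. The median log2 difference was 1.03 for H1, −0.018 for H2A, −0.47 for H2B, −0.12 for H3 and 0.70 for H4, against 0.041 for all tested genes. These sets were defined from the 30 genes without reads and are not groups of the study, and no test was made between them.

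The genes that were lower in the libraries with the gap were mostly ones with more shared sequence. For 57 genes the share of 50-base stretches of the coding sequence that also occur in a gene elsewhere in the genome was set against this log2 difference. Spearman's rho was −0.49 and Pearson's r −0.41 across genes, and rho was −0.48 within replicate 3 alone. The points share libraries and copies of one sequence, so they are not independent. Where under 50% of stretches were shared, 0 of 11 genes were over 2-fold lower (median log2 difference 0.85). At 50% to 80% it was 4 of 20 (median 0.62), and at 80% or more 11 of 26 (median −0.47). Identical copies went both ways: H2ac18 differed by −1.84 and H2ac19 by 0.37, while H2bc23 (Hist1h2bq) and H4bc24, also identical, differed by −1.71 and −2.04. A role of read assignment in these differences was not tested.

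**Figure D4:**
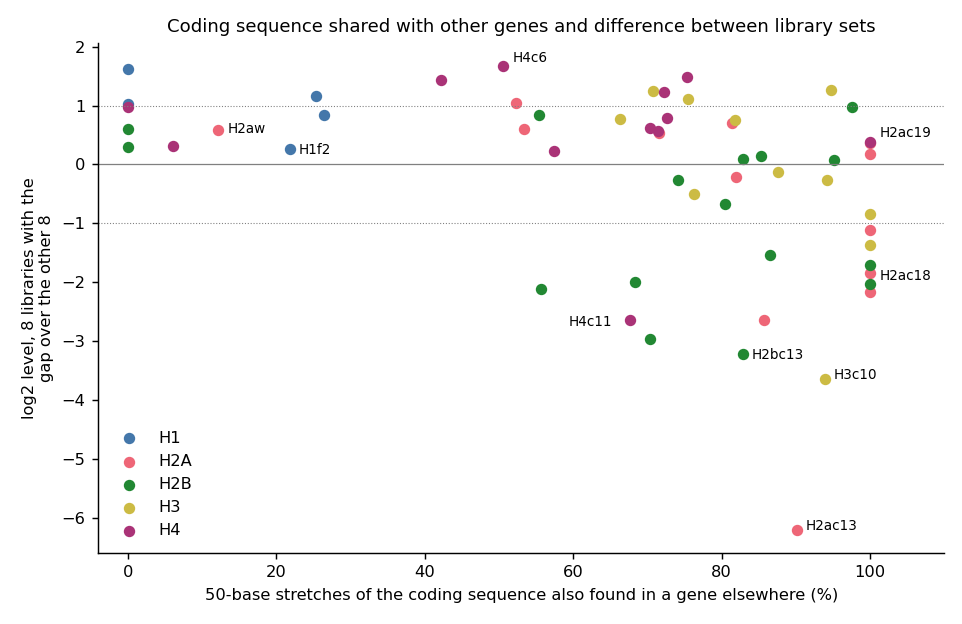
Difference in mean log2 CPM between the 8 libraries with the gap and the other 8, against the percentage of 50-base stretches of the coding sequence found in a gene elsewhere. Each point is 1 of 57 histone genes, coloured by type, and dotted lines mark 2-fold. Genes with under 50% shared stretches lie above 0, and H2ac13 lies lowest at −6.20.

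Other measures differed between the 2 sets too. The summed level of 17 matched genes for short RNAs without a poly(A) tail was 3576 to 9612 CPM in the libraries with the gap (median 5636) and 1929 to 7258 CPM in the other 8 (median 2972). The summed level of 8 of 8 microglia and macrophage markers was 2.62 to 352 CPM (median 130) against 2.79 to 58.2 CPM (median 10.5), with Lyz2 above 0 in all 18 libraries and Aif1 at 0 in 9 of them. The high sums of these markers are those of replicate 2, at 83.2 to 352 CPM. Within replicate 3 the libraries with the gap had 2.62 and 5.53 CPM, and the others 4.13 to 13.2 CPM, so this difference goes with the replicate. The 35 S phase genes summed to 166 to 452 CPM (median 328) in the libraries with the gap and 180 to 360 CPM (median 223) in the other 8. The part of these differences in the histone values was not tested.

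H2bc4 was the most abundant H2B gene. In co-culture it had 21.3, 32.3 and 23.0 CPM at day 2, 26.0, 67.1 and 18.5 CPM at day 4, and 16.6, 68.6 and 50.6 CPM at day 7. Astrocytes alone had 6.72, 31.5 and 35.5 CPM at day 2, 15.9, 39.8 and 29.2 CPM at day 4, and 15.7, 54.0 and 45.9 CPM at day 7. The co-culture library was the higher one in all 3 pairs at day 7, though the groups overlap, and the log2 fold change was 0.24 (SE 0.58), and 0.57 (SE 0.54) without the libraries apart. H2bc13 (Hist1h2bl) divided the libraries as H2ac13 did. In co-culture it had 31.9, 0.269 and 7.81 CPM at day 2, 22.7, 1.84 and 2.27 CPM at day 4, and 58.3, 0.991 and 1.41 CPM at day 7. Astrocytes alone had 13.4, 1.43 and 1.35 CPM at day 2, 17.9, 0.997 and 9.35 CPM at day 4, and 8.31, 1.18 and 9.20 CPM at day 7. The libraries with the gap lie at most at 1.84 CPM and the other 8 at least at 2.27 CPM, while the cultures overlap on each day. H2bc23, a further H2B gene, was at 1.25 to 5.29 CPM in the libraries with the gap and 4.23 to 15.97 CPM in the other 8, which overlap. H2bc6 (Hist1h2be) had 104, 6.66 and 9.72 CPM in co-culture at day 7, against 5.93, 4.23 and 4.15 CPM in astrocytes alone. The groups do not overlap, but the value of 104 CPM is that of the library apart. The log2 fold change of 3.07 (SE 0.79) had an adjusted p of 0.468 by edgeR, and without the libraries apart it was 0.74 (SE 0.49). H2bc18 (Hist2h2bb) had 27.7, 0.718 and 2.16 CPM in co-culture at day 7, against 0.407, 0.856 and 0.438 CPM in astrocytes alone. Its log2 fold change was 4.15 (SE 1.44, adjusted p = 0.468 by edgeR), and 1.29 (SE 1.31) without the libraries apart. The groups overlap.

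H2B promoters are known for an octamer bound by Oct1, which is shown for H2bc8 (Hist1h2bg) because it marks this type and its divergent H2A partners. The stretch is read from RefSeq on GRCm38.p6, with the octamer and the TATA box in capitals.
H2bc8, chr13:23571329-23571398, plus strand: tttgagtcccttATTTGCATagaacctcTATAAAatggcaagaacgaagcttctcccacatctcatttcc
The octamer ATTTGCAT was found on either strand in 6 of 15 H2B and 5 of 13 H2A promoters and in 0 of 6 H1, 0 of 9 H3 and 0 of 11 H4 promoters, against 1.81% of all genes. TATAAA was found in 25 of 54 described genes, against 14.3% of all genes, and CCAAT in 44 of 54, against 37.5%. Of the H4 promoters 3 of 11 held CCAAT, and all 34 promoters of H1, H2A and H2B did. No match of one motif overlapped a match of another. H2bc8 itself had 9.77, 14.9 and 3.61 CPM in co-culture at day 2, against 0, 11.6 and 3.22 CPM in astrocytes alone. The 0 comes from the library with 88 histone reads, whose floor of 3 reads is 20.2 CPM.

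H3 had the fewest reads of the 5 types. H3c6 had 13.1, 18.6 and 3.49 CPM in co-culture at day 2, 9.40, 7.22 and 4.77 CPM at day 4, and 5.21, 11.5 and 8.16 CPM at day 7. Astrocytes alone had 6.72, 27.5 and 5.39 CPM at day 2, 5.50, 10.6 and 2.52 CPM at day 4, and 3.02, 9.20 and 1.91 CPM at day 7. It was higher in co-culture in all 3 pairs at day 7, and the groups overlap. H3c7 (Hist1h3f) ran from 0.417 to 7.72 CPM in the 16 libraries and H3c11 (Hist1h3i) from 0.179 to 5.34 CPM, each highest in the day 2 co-culture of replicate 1. H3c10 (Hist1h3h) had the lowest unadjusted p of the tested histone genes at day 2, with 13.1, 0.134 and 2.62 CPM in co-culture, against 0, 0.0842 and 0.300 CPM in astrocytes alone. The 2 high co-culture libraries are those without the gap, and the 2 astrocyte-alone libraries not apart both have it. Its log2 fold change was 4.79 (SE 1.91, adjusted p = 1.0 by edgeR), and 4.78 (SE 1.81) without the libraries apart. In replicate 2, where both libraries have the gap, the values of 0.134 CPM in co-culture and 0.0842 CPM alone rest on 3 reads each. H3c15 (Hist2h3c2) was the only tested histone gene whose 3 co-culture libraries all lay below astrocytes alone at day 7, at 2.69, 4.29 and 2.47 CPM against 9.35, 5.29 and 7.04 CPM, with a log2 fold change of −1.19 (SE 0.69, adjusted p = 0.613 by edgeR), and −1.14 (SE 0.72) without the libraries apart. Co-culture replicates 2 and 3 have the gap, and replicates 1 and 3 of astrocytes alone do not. H3c15 was lower in the libraries with the gap, by a log2 difference of −1.38 over the 16 libraries. In replicate 2, within one set, it had 4.29 CPM in co-culture and 5.29 CPM alone.

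Among the H4 genes, all of which encode the same type of core histone, H4c4 (Hist1h4d) and H4c9 were the most abundant per length. In co-culture H4c4 had 10.5, 6.76 and 3.57 CPM at day 2, 5.87, 9.19 and 0.179 CPM at day 4, and 13.4, 7.01 and 15.9 CPM at day 7. Astrocytes alone had 0, 10.5 and 10.9 CPM at day 2, 4.77, 9.14 and 6.42 CPM at day 4, and 2.27, 10.7 and 6.45 CPM at day 7. The groups overlap at each day. The lowest of the 16 libraries was the day 4 co-culture, replicate 3. H4c9 ran from 1.79 to 13.6 CPM and H4c12 (Hist1h4k) from 0.537 to 7.38 CPM in the 16 libraries, each lowest in that same library. H4c8 (Hist1h4h) at day 7 had 12.3, 10.1 and 9.88 CPM in co-culture, against 3.78, 5.29 and 4.87 CPM in astrocytes alone. The groups do not overlap, and without the libraries apart the log2 fold change was 1.05 (SE 0.69, adjusted p = 1.0 by edgeR), close to 1.21 (SE 0.71, adjusted p = 0.616) with them. H4c18 (Hist1h4n) had 24.5, 4.21 and 8.86 CPM in co-culture at day 7, against 3.83, 2.89 and 3.07 CPM in astrocytes alone. The groups do not overlap. The log2 fold change was 1.93 (SE 0.80, adjusted p = 0.478 by edgeR), and 0.95 (SE 0.72) without the libraries apart. H4c6 (Hist1h4f) had 19.5, 0.545 and 1.33 CPM in co-culture at day 7, against 0.523, 1.07 and 0.258 CPM in astrocytes alone, which overlap. The 19.5 CPM is that of the library apart. The log2 fold change was 3.51 (SE 1.41, adjusted p = 0.468 by edgeR), and 0.57 (SE 1.27) without the libraries apart.

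No histone gene was called for co-culture at any day. In edgeR's quasi-likelihood test over 18 libraries, 0 of 58 histone genes and 0% of the 16539 tested genes had a Benjamini-Hochberg adjusted p under 0.05 at day 2, day 4, day 7 or on average over the days. In either direction, at an unadjusted p under 0.05, there were 2 of 58 histone genes at day 2, against 2.35% of all tested genes, 0 at day 4, against 0.369%, 5 at day 7, against 9.37%, and 2 on average, against 4.17%. All of these were higher in co-culture, where the background for that direction is 0.472% at day 2, 0.0907% at day 4, 8.1% at day 7 and 2.33% on average. The 5 at day 7 are H2bc6, H2bc18, H4c6, H4c18 and H1f3. Over the 16 libraries not apart 59 histone genes were tested and again 0 were called. There were then 5 at an unadjusted p under 0.05 at day 2, all higher (H2ac13, H2ac18, H2ac22, H2ac24 and H3c10), against 3.05% of all tested genes, and 1 at day 7, H2ac22, which was lower, against 1.56%. In these counts the culture goes largely with the set of libraries. All astrocytes alone left at day 2 and all co-cultures left at day 7 have the gap. The 5 genes were lower in the libraries with the gap, with log2 differences of −6.20, −1.84, −2.65, −1.11 and −3.64 in this order. DESeq2 called 22 genes at day 2 (0.133%), 0 at day 4 and 5 at day 7 (0.0302%), and none was a histone gene. Its counts of histone genes at an unadjusted p under 0.05 were 1 of 58 at day 2, against 3.23% of all tested genes, 0 at day 4, against 0.502%, and 11 at day 7, against 11.9%. With library totals in place of TMM, edgeR called H2ac13 at day 2, among 0.187% of all tested genes. Library totals were not run without the libraries apart. Nothing in the labels ties a replicate to its own animals, and the p-values cover only the variation among these cultures. In bulk RNA, fewer cells in S phase and less histone RNA per cell cannot be told apart.

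The median over the histone genes depended on which libraries were included. At day 2 their median log2 fold change of co-culture over alone was 0.23, with 37 of 58 higher, against 0.040 for all tested genes. At day 4 it was 0.077, again with 37 higher, against −0.014 for all tested genes. At day 7 it was 1.10, with 54 of 58 higher, against 0.0041 for all tested genes. Without the libraries apart the medians were 0.31 at day 2, with 42 of 59 higher, 0.055 at day 4, with 33 higher, and 0.10 at day 7, with 32 higher. With the replicate number as a block, over all 18 libraries, they were −0.051 at day 2, with 28 of 58 higher, −0.13 at day 4, with 21 higher, and 0.65 at day 7, with 50 higher. The direction at days 2 and 4 thus turned with the block. With the block and without the libraries apart they were 0.089, −0.12 and 0.30. For the fits with the block or without the libraries apart, no median over all tested genes is set beside these. The share of all tested genes that were higher is not given for any of the fits in this paragraph. The counts of higher histone genes are thus not set against a background.

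Pair by pair, the count of histone genes that were higher in co-culture ran from 11 to 47 of 58. In replicate 1 at day 4, 47 of 58 were higher in co-culture (median log2 difference 0.45), against 52.4% of all tested genes, and in replicate 2 it was 37 of 58 (0.11), against 47.0%. In replicate 3 at day 4, 11 of 58 were higher (−1.23), against 42.9% of all tested genes and a median of −0.15 over them. In that pair 31 of 58 histone genes and 29.1% of all tested genes were over 2-fold lower. Its co-culture library had a read in only 85.4% of all tested genes, and the part of this in the histone values was not tested. The 3 pairs of day 4 lie within one set of libraries each. At day 2 the count was 42 of 58 in replicate 1, which holds a library apart, against 64.9% of all tested genes, 24 in replicate 2, against 43.4%, and 24 in replicate 3, against 48.2%. At day 7 it was 46 of 58 in replicate 1, which holds the other library apart, against 39.1%, 25 in replicate 2, against 51.8%, and 35 in replicate 3, against 54.9%. In the 5 pairs within one set, 0 of 58 genes were higher in all 5, against 3.46% of all tested genes. H3c3 (Hist1h3c) and H4c14 (Hist2h4) were lower in all 5, which is 2 of 58, against 5.56% of all tested genes. H1f2 was higher in 4 of the 5, with differences from −0.38 to 0.41.

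**Figure D5:**
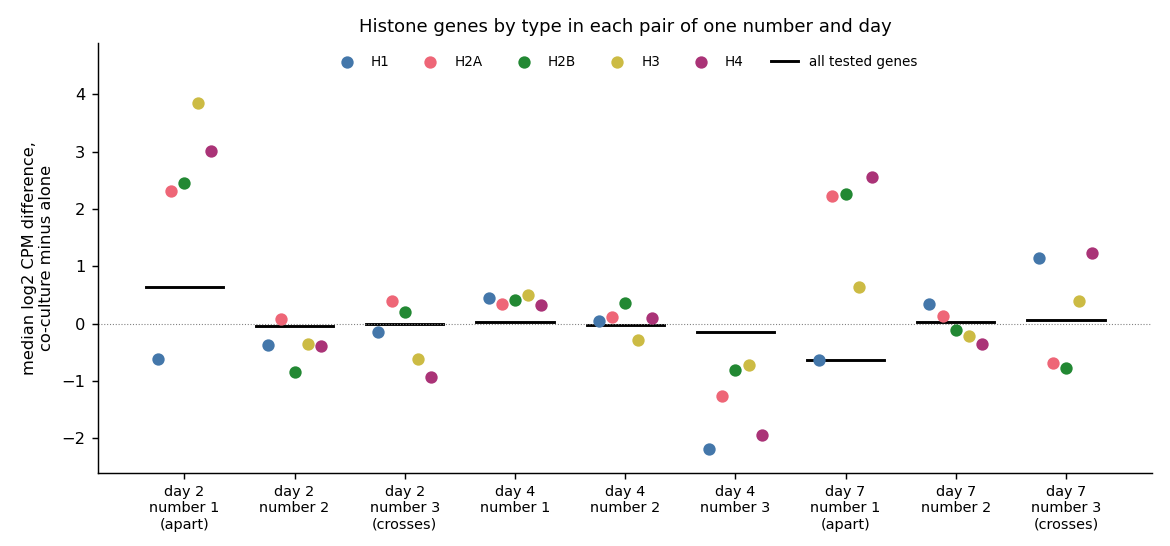
Median log2 CPM difference, co-culture minus alone, of the tested histone genes of each type in the 9 pairs of one replicate number and day; black lines are the median over all tested genes. Pairs marked apart hold one of the 2 libraries apart, and pairs marked crosses join a library with the gap to one without it. In replicate 3 at day 4 all 5 types lie below 0, and in replicate 1 at day 4 all 5 lie above it. The co-culture library of replicate 3 at day 4 had a read in 85.4% of all tested genes.

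Within a day, 8 of 58 genes were higher in co-culture in 3 of 3 pairs at day 2, against 15.2% of all tested genes, 5 at day 4, against 10.7%, and 11 at day 7, against 14%. Lower in 3 of 3 pairs were 5 at day 2, against 8.48%, 4 at day 4, against 14.8%, and 3 at day 7, against 15.8%. The 8 at day 2 are H2ac4, H2ac18, H2ac22, H2ac24, H2bc8, H3c4, H3c7 and H3c10. In their replicate 1 pair the astrocyte-alone library is below its floor of 20.2 CPM for each of them, at 0 for 6, 6.72 CPM for H3c7 and 13.4 CPM for H2ac18, so no direction can be read in that pair. Over replicates 2 and 3 alone, the 8 higher in both pairs at day 2 are the same genes, against 22% of all tested genes, and 18 were lower in both, against 27.8%. At day 7 without the pair of the library apart, 16 were higher in both pairs, against 30.9%, and 14 lower, against 23.4%. The 11 at day 7 are H1f3, H2ac19, H2aw, H2bc4, H2bc6, H2bc11, H3c1, H3c6, H4c8, H4c9 and H4c18. The 5 at day 4 are H1f2, H2ac20, H2bc11, H4c1 and H4c3. All 3 co-culture libraries lay above all 3 of astrocytes alone for H2ac4, H2ac22 and H2ac24 at day 2 (background 3.26%), for H2bc11 at day 4 (2.05%) and for H1f3, H2aw, H2bc6, H4c8 and H4c18 at day 7 (4.29%). Wholly below lay 0 genes at day 2 (2.27%), 0 at day 4 (3.92%) and H3c15 alone at day 7 (5.58%). The 3 genes at day 2 have 0 in the library whose floor is 20.2 CPM, far above their co-culture values of 0.238 to 2.35 CPM, so that 0 does not show a lower level. Over the 16 libraries H2ac4, H2ac18, H2ac22, H2ac24 and H3c7 lay wholly above at day 2, which is 5 of 58 (background 4.69%), and 10 at day 7 (9.37%). Wholly below were then H2bc18 at day 2 (7.46%) and 7 genes at day 7 (8.57%). In these counts over the 16 libraries the astrocytes alone of day 2 and the co-cultures of day 7 all have the gap.

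The summed histone level averaged 470 ± 224 CPM in co-culture and 454 ± 164 CPM in astrocytes alone at day 2, 414 ± 193 and 375 ± 83.1 CPM at day 4, and 664 ± 390 and 343 ± 20.4 CPM at day 7 (SD, n = 3 each). Its log2 ratio of co-culture over alone was 0.050, 0.14 and 0.95. Without the libraries apart, astrocytes alone at day 2 averaged 385 CPM (n = 2) and the log2 ratio was 0.29, and the day 7 co-culture averaged 439 CPM (n = 2) and the log2 ratio was 0.35. By type, the day 7 means in co-culture and alone were 201 ± 45.8 and 145 ± 11.5 CPM for H1, 144 ± 162 and 63.8 ± 17.3 CPM for H2A, 196 ± 183 and 80.3 ± 15.3 CPM for H2B, 29.5 ± 13.2 and 20.9 ± 3.53 CPM for H3, and 93.3 ± 73.9 and 33.7 ± 2.94 CPM for H4. Without the library apart the co-culture means (n = 2) were 225 CPM for H1, 50.5 CPM for H2A, 90.4 CPM for H2B, 22.0 CPM for H3 and 51.2 CPM for H4. The mean of H2A then lies below that of astrocytes alone, and the other 4 types lie above it.

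Over time, no gene, histone or other, was called in edgeR between days in either culture. In co-culture, 0 of 58 histone genes had an unadjusted p under 0.05 for day 4 against day 2, against 2.17% of all tested genes, 5 for day 7 against day 4, against 10.2%, and 4 for day 7 against day 2 (H2bc6, H2bc18, H3c15 and H4c18), against 13.2%. In astrocytes alone it was 1 for day 4 against day 2 (H3c10), against 0.732%, and 0 for day 7 against day 4, against 0.169%. With library totals only, H2ac13 was called for day 4 against day 2 in astrocytes alone, among 0.175% of all tested genes. This call includes the library with 88 histone reads. The change of the co-culture effect between days, tested as an interaction, called no gene. It had 0 histone genes at an unadjusted p under 0.05 for day 4 against day 2, against 1.06%, 3 for day 7 against day 2, against 5.47%, and 2 for day 7 against day 4, against 3.07%. For day 7 against day 2 in co-culture DESeq2 called 248 genes (1.5%), with H2bc6 and H2bc18 among them. Both rest on replicate 1 of the day 7 co-culture, at 104 and 27.7 CPM, and the highest value of either in the 16 libraries was 9.72 and 2.16 CPM. Between days 2 and 7 in astrocytes alone 1 of 58 had an unadjusted p under 0.05, against 1.11%. This was H1f1, with a log2 fold change of −4.03 (SE 1.61, adjusted p = 1.0 by edgeR), and −3.10 (SE 1.36) without the libraries apart. It had 0.523, 2.03 and 0.387 CPM at day 7, against 40.3, 14.6 and 2.47 CPM at day 2, where the first is the library with 88 histone reads. The median log2 fold change of the 58 genes between days 2 and 7 was 0.60 in co-culture and −0.36 in astrocytes alone, against 0.026 and 0.011 for all tested genes. Both medians had the opposite sign without the libraries apart, at −0.52 in co-culture and 0.011 in astrocytes alone. The counts at an unadjusted p under 0.05 were then 9 of 59 for day 7 against day 2 in co-culture, against 6.25% of all tested genes, and in astrocytes alone 3 for day 4 against day 2, against 1.3%, and 2 for day 7 against day 2, against 1.66%. For the change of the co-culture effect they were 4 for day 4 against day 2, against 1.67%, 12 for day 7 against day 2, all lower at day 7, against 3.24%, and 1 for day 7 against day 4, against 0.685%. No histone gene was called in these contrasts without the libraries apart. The pairs of replicate 3 at days 2 and 7 join libraries of both sets in opposite ways, and the part of this in the 12 was not tested.

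As a share of all reads, not scaled by TMM, replicate 2 had 585, 502 and 513 histone reads per 1000000 reads in co-culture at days 2, 4 and 7, and 658, 471 and 403 in astrocytes alone. Replicate 1 had 882, 773 and 739 in co-culture, the last in a library apart, and 27.1, 633 and 398 in astrocytes alone, the first in a library apart. Replicate 3 had 324, 258 and 565 in co-culture and 319, 354 and 452 in astrocytes alone. Replicate 2 had its highest share at day 2 in both cultures, replicate 3 had it at day 7 in both, and replicate 1, over the libraries not apart, had it at day 2 in co-culture and at day 4 in astrocytes alone.

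The other genes of the pathway did not pass the test either. Slbp, which binds the stem-loop, had log2 fold changes of −0.68 (SE 0.47), 0.28 (SE 0.44) and 0.81 (SE 0.45) at days 2, 4 and 7, and Npat, the coactivator that switches histone genes on in S phase, had 0.00040 (SE 0.45), −0.059 (SE 0.42) and 0.67 (SE 0.43). Of 24 histone mRNA genes 0 were called, with medians of 0.057, 0.090 and 0.044. The list joins genes for synthesis and 3′ end processing with genes for decay, such as Eri1, Upf1, Tut7 and Dis3l2. Its medians are thus not those of synthesis and processing alone. Casp8ap2 (FLASH), needed for histone pre-mRNA cleavage, had 1.66 (SE 0.65, adjusted p = 0.468 by edgeR) at day 7. Zfp473, of the histone pre-mRNA complex, had −2.89 (SE 1.37, adjusted p = 1.0 by edgeR) at day 2, and at day 7 Lsm10 and Lsm11, of the U7 snRNP, had −0.43 (SE 0.75) and −0.70 (SE 1.04). The 35 S phase genes had medians of −0.20, −0.22 and 0.68, with 10, 12 and 27 of 35 higher in co-culture, and at day 7 Pcna, the sliding clamp of DNA polymerase, had 1.39 (SE 0.67), Rrm2 1.20 (SE 0.71), Tyms 1.86 (SE 0.80), Mcm2 0.58 (SE 0.56), Mcm5 0.67 (SE 1.00), Ccne1 −0.95 (SE 0.98) and Ccne2 0.50 (SE 0.94), none of them called. The medians were −0.68, −0.24 and −0.80 for the 25 genes of G2 and mitosis, with 4, 9 and 8 of 25 higher, and at day 7 Ccna2 had −1.07 (SE 0.82), Cdk1 −0.63 (SE 1.16) and Top2a −0.57 (SE 0.81). The S phase sum at day 7 was 166 to 942 CPM in co-culture and 180 to 227 CPM in astrocytes alone, and the 942 CPM is that of the library apart. Over the 16 libraries 17 of 35 S phase genes were higher at day 7, with a median of −0.14, and 6 at day 2, with a median of −0.32. Pcna was then at 0.078 (SE 0.45), Rrm2 at −0.14 (SE 0.64), Tyms at −0.16 (SE 0.53) and Mcm5 at −0.57 (SE 1.00) at day 7. Of the G2 and mitosis genes 0 of 25 were higher at day 7, with a median of −0.98, and 5 at day 2, with a median of −0.64. The medians of the 24 histone mRNA genes were then −0.12 at day 2 and 0.18 at day 7, and those of the replacement histones −0.29 and 0.24. All astrocytes alone left at day 2 and all co-cultures left at day 7 have the gap, so these values largely compare the sets too. Mki67 of the G2 and mitosis genes and Tut7 of the histone mRNA genes are among the 30 genes that define the gap. Their direction over the 16 libraries was thus fixed, higher at day 2 and lower at day 7. At day 7 over the 16 libraries Casp8ap2 was at 0.44 (SE 0.57), Slbp at 0.18 (SE 0.34) and Npat at 0.26 (SE 0.41). Lsm10 was at 0.060 (SE 0.46), the opposite sign, and 0 genes of these 4 lists were called. Of 11 replacement histone genes 0 were called, with medians of −0.36, 0.21 and 0.42. H3f3b (H3.3) had 0.00087 (SE 0.43), 0.22 (SE 0.42) and 0.42 (SE 0.42), and H1f0 (H1.0), the linker histone of resting cells, −0.37 (SE 0.41), 0.21 (SE 0.39) and −0.099 (SE 0.39). At day 7 the other 9 were H3f3a at 0.52 (SE 0.90), H2afx at 0.88 (SE 1.01), H2afy at 1.15 (SE 0.52), H2afz at 0.22 (SE 1.01), H2afv at 0.88 (SE 0.56), H2afj at 0.41 (SE 0.46), H1fx at 2.52 (SE 1.26), H2afy2 at −0.35 (SE 0.74) and Cenpa, the centromeric H3, at −0.80 (SE 1.19). Over the 16 libraries H2afy was at 0.0020 (SE 0.29) at day 7. H1fx at −0.52 (SE 1.09) and H2afx at −0.066 (SE 1.02) had the opposite sign there. So did H1f0 at 0.24 (SE 0.31) and H2afy2 at 0.12 (SE 0.49). The other replacement histones kept their sign.

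Markers of other cells were measured beside these values. At day 7 the 17 matched genes for short RNAs without a poly(A) tail summed to 4579 to 46111 CPM in co-culture and 2598 to 5083 CPM in astrocytes alone. The 46111 CPM is that of the library apart, and the other 2 co-culture libraries had 4579 and 9612 CPM. The 8 microglia and macrophage markers summed to 5.53 to 352 CPM in co-culture and 2.79 to 193 CPM in astrocytes alone. Of these markers 8 of 8 were higher in co-culture at day 7, and 0 were called. Their median log2 fold change was 2.45, and 2.99 without the libraries apart. Their part in the histone values was not tested. The 8 neuron markers, of which Dcx had no read in 9 of the 18 libraries and Nefl in 13, summed to 85.8 to 270 CPM in co-culture at day 7 and 81.9 to 155 CPM in astrocytes alone. The 270 CPM is that of the library apart, and the other 2 co-culture libraries, at 85.8 and 133 CPM, lie within the range of astrocytes alone. Gene by gene, however, 5 of 5 tested neuron markers were higher in co-culture at day 7 (median log2 fold change 1.32). Without the libraries apart it was 6 of 7 (median 6.30), and 0 were called in either fit. The sum thus does not show that the cultures hold equal neuron RNA.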

How the data were processed

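The authors deposited whole-number read counts per gene, without normalization, for 18 libraries of total RNA. The submitters' processing notes list Subread, featureCounts and build mm9. Versions, the use of strand and the treatment of reads that fit several genes are not stated there, and reads of overlapping or antisense genes cannot be told apart. Columns were matched by name, and 17 deposited columns of correlations were not used.

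Entrez IDs were named with RefSeq tables (24207 of 26301 had a symbol). The reference is of another build, GRCm38, and gave names and sequences but no position of a counted feature. The test was edgeR 4.0.16 (R 4.3.3), quasi-likelihood, with 6 group means over 18 libraries, TMM scaling, filterByExpr and Benjamini-Hochberg adjusted p under 0.05 over 16539 genes. It was tested on simulated data first. CPM are TMM-scaled, and log2 CPM of pairs and library sets use a prior count of 2. Floors cover counting error only.

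The named genes are, by type, the 5 with most reads, any histone gene called by edgeR, by DESeq2 or with the replicate block, and fixed genes of the pathway. Any other histone gene was named once its values were known. The members, lists and rule were chosen with earlier results of these data known. Replicate numbers go with dates in the labels, so they pair the samples. The main test has no term for this pairing, so the SE and p-values given for single genes are unpaired. Deviations from the group mean had a correlation of 0.108 to 0.469 for the same number and day, and of −0.346 to −0.0102 for different numbers of the same day. The deviations of a group sum to 0, so the second range is tied to the first and is no separate evidence. By mean correlation with the libraries of the other groups, 18 of 18 libraries had their own number as the closest. Alternatives were DESeq2 1.42.0, limma 3.58.1 (voom with quality weights), other scalings and filters, the block, 16 libraries and leaving out each replicate. A term for the set of libraries was added after seeing the data.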

Additional observations from a re-analysis of the deposited data

Results flagged for a closer look

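The summed H4 level moved in opposite directions at 2 days. It was lower in co-culture in all 3 pairs at day 2, with log2 differences of −0.49, −0.20 and −1.06 in replicates 1, 2 and 3, and higher in all 3 at day 7, with 2.44, 0.075 and 1.01. The means of the 2 days differ by 1.76 on the log2 scale. The difference was not tested. In replicate 1 both pairs hold a library apart, in replicate 3 both join a library with the gap to one without it, and in replicate 2, within one set, the differences were −0.20 and 0.075. The −0.49 of replicate 1 at day 2 rests on the library with 88 histone reads, of which H4 had 12.5%. Gene by gene, 9 of 12 H4 genes were higher in co-culture in that pair (median log2 difference 3.01), so no direction can be read in it.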

How the results depend on the processing

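No histone gene was called in most settings, and the exceptions were few. With library totals in place of TMM, 1 histone gene, H2ac13, was called for co-culture at day 2 and 1, again H2ac13, for day 4 against day 2 in astrocytes alone. Both contrasts hold the library with 88 histone reads, whose TMM factor was 0.046. Library totals were not run without it. DESeq2 called 2 for day 7 against day 2 in co-culture, H2bc6 and H2bc18. The replicate block, a paired fit, called 0 histone genes in the 13 contrasts, and its medians were −0.051 at day 2, −0.13 at day 4 and 0.65 at day 7. Leaving out each replicate gave 0 calls throughout. The summed histone level at day 2, a log2 ratio of 0.050, was 0.83 as a share of all reads and 0.43 without the gene that took 92.5% of 1 library and mitochondrial ribosomal RNA. Leaving out 1 library or replicate moved it between −0.38 (without co-culture replicate 1) and 0.32 (without co-culture replicate 3), with −0.21 without replicate 3 of astrocytes alone. The same ranged from −0.23 to 0.45 at day 4 and 0.31 to 1.20 at day 7. The cause of these shifts was not tested. Over all settings run, the median of the tested genes ranged from −0.28 to 0.82 at day 2, −0.54 to 0.40 at day 4 and 0.042 to 1.33 at day 7. Depth limits the library with 88 histone reads most: no gene there can be read below 20.2 CPM.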
